A study of Homo sapiens with 12 samples.

Results

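The transcription factor NRF2 (gene NFE2L2), its inhibitor KEAP1 and 8 antioxidant target genes, HMOX1, NQO1, GCLC, GCLM, TXNRD1, SRXN1, FTH1 and OSGIN1, were followed across 12 RNA-seq libraries. These 10 genes were listed by name as the core of one pathway, with earlier results of these data known, and all 10 were among the 28278 genes of the count table and passed the filter on low counts in every comparison. The libraries came from WA09-Islet1-GFP cells, a human embryonic stem cell line with a wild-type genotype apart from a green fluorescent protein (GFP) reporter for Islet1, a transcription factor of motor neurons. All cultures were differentiated towards motor neurons, plated, and given either cis-chlordane, an organochlorine pesticide, at a labelled 10 µM, or the same volume of the solvent DMSO, for 16 hours. Each culture was then sorted by GFP signal, which gave 4 groups of 3 libraries: control GFP-positive, treated GFP-positive, control GFP-negative and treated GFP-negative. The replicates are labelled as biological, and all of them stem from a single cell line, so p-values measure the spread between cultures of that line.

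NRF2 is held at a low level in resting cells because KEAP1, an adaptor of a CUL3-based ubiquitin ligase, marks it for destruction. Reactive compounds modify cysteines of KEAP1, NRF2 then escapes, pairs with a small MAF protein and binds antioxidant response elements near genes for glutathione synthesis, thioredoxin reduction, quinone reduction, haem breakdown and iron storage. BACH1 occupies many of the same elements as a repressor, and neurons are known for a weaker NRF2 pathway than glia.

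The antioxidant response element is the sequence that NRF2 is known to bind, so the member promoters that hold its core are shown. The core letters TGACNNNGC were searched on both strands in RefSeq windows (GRCh38.p14) of 250 bases before to 50 bases after a start site. Windows were given for 8 of the 10 genes, HMOX1 and FTH1 having no entry, which left 11 windows. The core was in 4 of these 11 windows and in 13.3% of the 35116 windows of all genes. The 4 belonged to GCLM, TXNRD1 and KEAP1. Capitals mark the matches in the sequences, which run 5′ to 3′ on the strand of the gene.
GCLM, chr1:93909381-93909680, minus strand: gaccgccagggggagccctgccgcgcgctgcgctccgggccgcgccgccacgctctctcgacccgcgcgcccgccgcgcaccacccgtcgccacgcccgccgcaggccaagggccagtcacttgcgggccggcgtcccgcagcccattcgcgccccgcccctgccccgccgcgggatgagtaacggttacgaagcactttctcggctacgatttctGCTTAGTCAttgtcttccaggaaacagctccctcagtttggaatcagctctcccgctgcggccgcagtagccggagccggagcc
TXNRD1, first start, chr12:104215529-104215828, plus strand: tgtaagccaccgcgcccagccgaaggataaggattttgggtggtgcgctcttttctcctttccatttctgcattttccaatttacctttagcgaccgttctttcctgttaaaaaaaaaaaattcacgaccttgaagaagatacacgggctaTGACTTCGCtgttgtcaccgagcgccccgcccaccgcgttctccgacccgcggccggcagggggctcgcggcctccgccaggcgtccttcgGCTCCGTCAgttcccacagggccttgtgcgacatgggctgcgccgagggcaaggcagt
TXNRD1, second start, chr12:104286782-104287081, plus strand: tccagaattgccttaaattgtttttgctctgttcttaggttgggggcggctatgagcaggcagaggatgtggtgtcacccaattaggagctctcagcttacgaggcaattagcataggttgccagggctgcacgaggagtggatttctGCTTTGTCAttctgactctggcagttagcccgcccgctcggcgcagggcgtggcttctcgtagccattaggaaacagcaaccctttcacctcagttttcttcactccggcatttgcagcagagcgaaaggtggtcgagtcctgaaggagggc
KEAP1, chr19:10502722-10503021, minus strand: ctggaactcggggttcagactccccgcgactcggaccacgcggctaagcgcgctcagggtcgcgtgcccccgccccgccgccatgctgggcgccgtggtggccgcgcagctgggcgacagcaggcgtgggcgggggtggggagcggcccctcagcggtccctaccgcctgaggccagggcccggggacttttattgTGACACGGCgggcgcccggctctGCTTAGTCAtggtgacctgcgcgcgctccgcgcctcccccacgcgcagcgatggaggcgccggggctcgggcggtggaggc
The GCLM match lay 34 bases before the start site, and the same 9 letters, GCTTAGTCA, stood in the KEAP1 window 31 bases before the start. A second KEAP1 match lay 54 bases before the start, and the other KEAP1 window held none. For comparison, TGATGNAA, an element bound by C/EBP and ATF proteins, was in 3.62% of all windows, and GAANNTTC, a pair of heat shock units, was in 6.77%, and neither was in a window of a member. The first 7 letters of the core can also spell TGACTCA, a site of AP-1 proteins, and a match is a description of letters, not of binding.

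Library sizes ranged from 23414935 to 38347050 counts with a median of 31553596. The summed level of 9 motor neuron marker genes was 2276 to 2857 CPM (the share of a library's counts, scaled to a common library size) in control GFP-positive and 389 to 427 CPM in control GFP-negative libraries, with 8 of the 9 genes higher and LHX3 lower in GFP-positive cells. In treated cells 6 of the 9 were higher, LHX3 was again lower, and ISL2 (log2 fold change -0.16) and MNX1 (-0.07) did not pass. Treatment lowered 7 of the 9 genes in GFP-positive cells, to a sum of 769 to 1134 CPM, and 5 of 9 in GFP-negative cells, to 152 to 187 CPM. ISL1, the gene of Islet1 that the GFP reporter follows, fell in both fractions (log2 fold change -2.38 ± 0.20 and -2.23 ± 0.36 SE). Whether each fraction held the same kinds of cells in control and treated cultures was not tested. In GFP-negative libraries the summed level of 6 cycling genes went from 529 to 665 CPM in control to 161 to 217 CPM in treated libraries (6 of 6 lower), of 8 interneuron genes from 30.2 to 35.4 to 6.16 to 9.53 CPM (5 of 7 tested lower), and of 8 astroglial genes from 192 to 286 to 84.7 to 115 CPM (3 of 6 tested lower, 2 higher). The sum of 9 neural progenitor genes, in contrast, was 6199 to 8268 CPM in control and 7357 to 8414 CPM in treated GFP-negative libraries. Of the 8 tested there, 4 were called lower and 0 higher. At an adjusted p below 0.05 alone 5 fell and 1 rose, VIM (0.71 ± 0.12 SE). In GFP-positive libraries that sum was 3044 to 3439 and 2440 to 3254 CPM, with PAX6 called higher (2.01 ± 0.21) and HES1 lower (-1.54 ± 0.34). In GFP-positive libraries 8 fibroblast genes went from 261 to 326 to 50.4 to 82.0 CPM (3 of 3 tested lower). Among endothelial and macrophage markers, KDR rose in both fractions (2.76 and 3.41) while CDH5 fell in GFP-positive cells (-2.69), and CD68, the single macrophage gene tested in GFP-positive cells, rose there (2.95). In bulk RNA, fewer cells of a type and less RNA per cell cannot be told apart, and the part of these shifts in the results was not tested. Control GFP-negative replicate 3 stood apart. Its 7 erythroid genes were at 6064 CPM in sum, against 4.23 and 6.5 CPM in the other control GFP-negative libraries. In treated GFP-negative libraries this sum was 0.364 to 232 CPM. Macrophage markers in control GFP-negative replicate 3 were at 68.7 CPM. Calls of members and some single values are also given without this replicate, and the other values include it.

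The first question was how the pathway responded to cis-chlordane in the sorted GFP-positive motor neurons. NFE2L2 and 7 target genes were upregulated, FTH1 rose by less than 2-fold, and KEAP1 did not pass the test. A gene was called at an adjusted p below 0.05 and a change of at least 2-fold; 8 of the 10 members were called higher and 0 lower, where 24% of all tested genes were called, 12.8% higher and 11.2% lower. At an adjusted p below 0.05 alone 9 members rose, as did 26.5% of all tested genes. The median log2 fold change of the members was 1.68, against 0.03 over all tested genes. Every treated library exceeded every control library for 9 of the 10 members, a pattern seen for 26.9% of all tested genes.

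**Figure D1:**
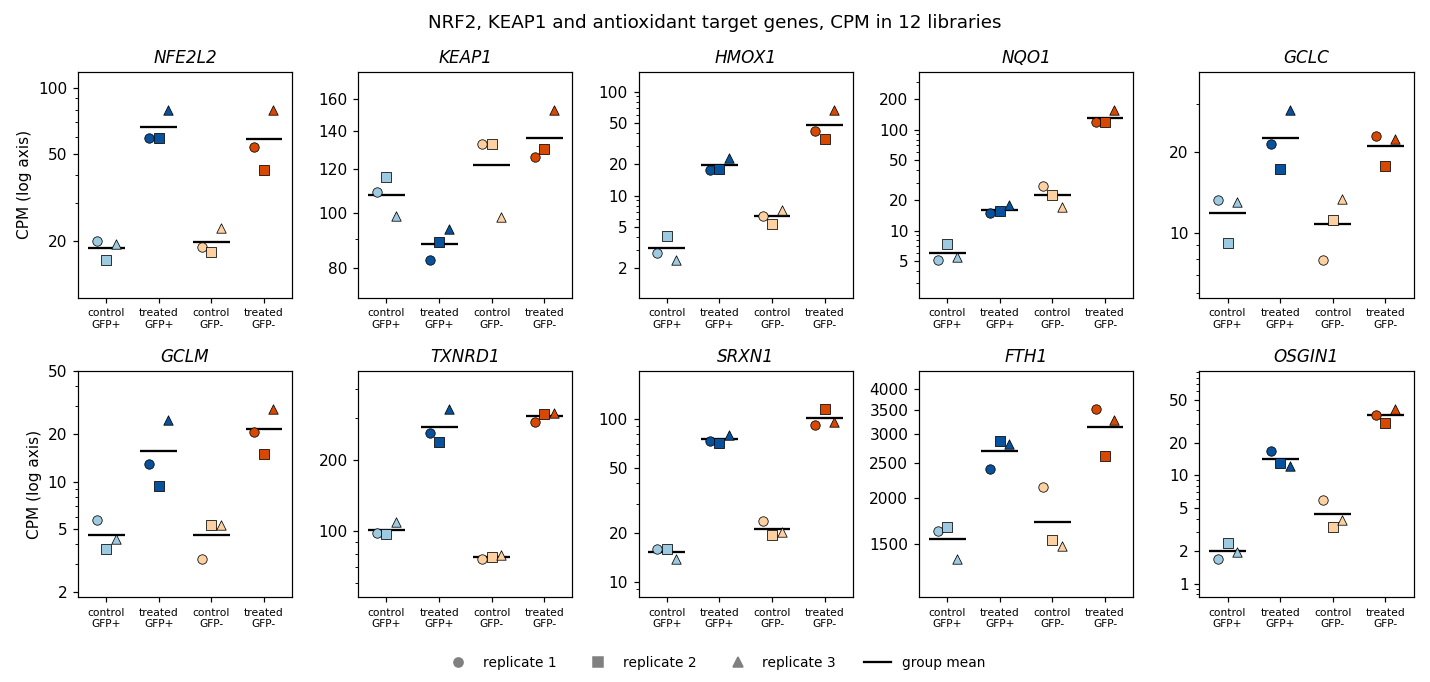
Level of each member in the 12 libraries in CPM on log axes that differ between panels, with symbols for the replicates and lines for the group means. In both sort fractions the treated libraries lie above the control libraries for 9 of the 10 genes, and KEAP1 is the exception.

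NFE2L2 encodes the factor itself (chr2:177218667-177392756, minus strand, GENCODE 44). Its transcripts were at 20.0, 16.4 and 19.4 CPM in control and at 59.4, 59.4 and 80.1 CPM in treated GFP-positive libraries. The groups did not overlap, and the level rose 3.73-fold (log2 fold change 1.90 ± 0.18 SE, adjusted p = 1.4e-10). HNRNPA3, a gene on the opposite strand that shares 23.4% of the annotated exon bases of NFE2L2, was at 161 to 203 CPM in control and 206 to 240 CPM in treated GFP-positive libraries.

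KEAP1, the repressor arm of the pathway (chr19:10486125-10503558, minus strand), did not pass the test in these cells. It was at 109, 116 and 98.9 CPM in control and 82.6, 88.8 and 93.9 CPM in treated GFP-positive libraries. Each treated library lay below each control library, as for 30.6% of all tested genes, yet the log2 fold change was -0.22 ± 0.16 SE with an adjusted p of 0.25. With the trend on GC content removed the log2 fold change was 0.18 (adjusted p = 0.28), so no direction is given for it.

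Among the targets, OSGIN1 (chr16:83931311-83966332), a growth inhibitor named for its induction by oxidative stress, rose most among the members in GFP-positive cells. Its levels were 1.68, 2.40 and 1.95 CPM in control and 16.9, 13.1 and 12.3 CPM in treated libraries, a 7.31-fold rise (log2 fold change 2.87 ± 0.24 SE, adjusted p = 5.1e-12). HMOX1 (chr22:35380361-35394214), the inducible enzyme that opens the haem ring and frees its iron, was at 2.83, 4.08 and 2.40 CPM in control and 17.8, 18 and 23 CPM in treated libraries. It rose 6.58-fold (log2 fold change 2.72 ± 0.23 SE, adjusted p = 6.7e-12), so both genes went from a few CPM to well over 10 CPM with no overlap between groups.

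SRXN1 (chr20:646615-653200), which repairs over-oxidised peroxiredoxins, was at 15.9, 15.8 and 13.7 CPM in control and 73.3, 70.8 and 79.3 CPM in treated GFP-positive libraries. The rise was 5.16-fold (log2 fold change 2.37 ± 0.18 SE, adjusted p = 3.3e-13), with the treated replicates close together. TXNRD1 (chr12:104215779-104350307), the cytosolic reductase that keeps thioredoxin active, started far higher, at 97.7, 97.4 and 109 CPM, and reached 259, 237 and 329 CPM, a 2.84-fold rise (log2 fold change 1.51 ± 0.16 SE, adjusted p = 1.7e-09). An annotated gene on the same strand, absent from the table, shares 90.7% of the exon bases of SRXN1, so reads of that gene cannot be told apart from SRXN1 reads.

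GCLC and GCLM, the catalytic and modifier subunits of glutamate-cysteine ligase, carry out the rate-limiting step of glutathione synthesis, and both rose. GCLM (chr1:93885199-93909456) was at 5.67, 3.74 and 4.32 CPM in control and 13, 9.42 and 24.4 CPM in treated GFP-positive libraries, a 3.59-fold rise (log2 fold change 1.84 ± 0.26 SE, adjusted p = 3.9e-07). Treated replicate 3 held the highest value, and without it the log2 fold change was 1.36. GCLC (chr6:53497341-53616970) was at 13.2, 9.13 and 13 CPM in control and 21.3, 17.3 and 28.7 CPM in treated libraries, so the groups were apart but close. Its 2.00-fold rise (log2 fold change 1.00 ± 0.21 SE, adjusted p = 1.7e-04) sat at the fold limit, and 8 of 14 alternative settings put it below that limit, with values from 0.78 to 0.99.

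NQO1 (chr16:69706996-69726668), which reduces quinones with NADPH or NADH, was at 5.11, 7.33 and 5.50 CPM in control and 15, 15.5 and 18 CPM in treated GFP-positive libraries. It rose 2.83-fold (log2 fold change 1.5 ± 0.21 SE, adjusted p = 3.5e-07), and the treated libraries stood clear of the controls. FTH1 (chr11:61959718-61967634), the ferritin subunit that oxidises iron for storage, was at 1633, 1665 and 1362 CPM in control and 2411, 2882 and 2825 CPM in treated libraries. Its rise of 1.82-fold (log2 fold change 0.87 ± 0.16 SE, adjusted p = 2.4e-05) passed the test and missed the fold limit. BEST1, on the opposite strand, shares 63.2% of the FTH1 exon bases and was at 3.68 to 8.97 CPM in GFP-positive libraries, and GENCODE lists 25 FTH1 pseudogenes, 1 of them in the table, whose reads could be shared with FTH1.

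The second question was whether the cells sorted as GFP-negative from the same cultures responded. Of the 10 members, 7 were called higher and 0 lower, where 18.3% of all tested genes were called, 8.59% higher and 9.75% lower. At an adjusted p below 0.05 alone 9 members rose, as did 15.3% of all tested genes. GCLC and FTH1 passed the test with changes below 2-fold, and KEAP1 was the member that did not pass. The median log2 fold change of the members was 2.08, against -0.01 over all genes, and 9 of 10 had every treated library above every control library, as did 24% of all tested genes. Without control GFP-negative replicate 3 the number called higher was 8, GCLC being added at a log2 fold change of 1.11.

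**Figure D2:**
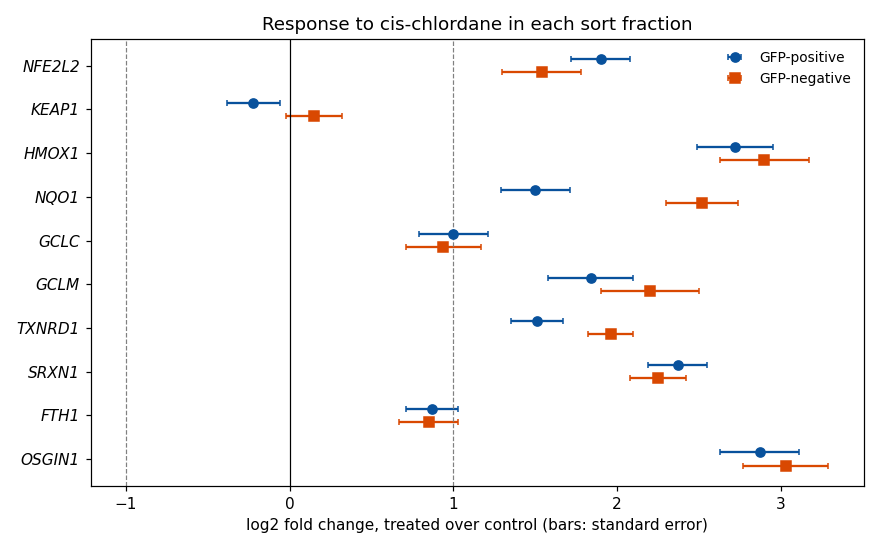
log2 fold change of treated over control libraries for each member, with circles for GFP-positive and squares for GFP-negative cells, bars for the standard error and dashed lines at a 2-fold change. KEAP1 lies near 0 in both fractions, and NQO1 shows the widest gap between fractions, 1.5 in GFP-positive and 2.52 in GFP-negative cells.

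NFE2L2 rose from 18.8, 17.8 and 23.1 CPM in control to 53.9, 42.4 and 80.0 CPM in treated GFP-negative libraries (log2 fold change 1.54 ± 0.24 SE, adjusted p = 0.0014). KEAP1 was at 133, 133 and 98.5 CPM in control and 126, 130 and 153 CPM in treated libraries, and the groups overlapped (log2 fold change 0.15 ± 0.17 SE, adjusted p = 0.56). NFE2L2 thus rose 2.91-fold in these cells with no overlap between groups, while no change of KEAP1 was detectable.

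HMOX1 went from 6.44, 5.37 and 7.36 CPM to 42.1, 35 and 67.4 CPM in GFP-negative libraries, a 7.44-fold rise (log2 fold change 2.90 ± 0.27 SE, adjusted p = 9.5e-05). OSGIN1 went from 5.91, 3.35 and 3.84 CPM to 36.4, 30.8 and 41.4 CPM, an 8.16-fold rise (log2 fold change 3.03 ± 0.26 SE, adjusted p = 5.9e-05). For each of them the lowest treated library exceeded the highest control library, as in GFP-positive cells.

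NQO1 was at 28.0, 22.8 and 17.2 CPM in control and 119, 119 and 159 CPM in treated GFP-negative libraries, a 5.74-fold rise (log2 fold change 2.52 ± 0.22 SE, adjusted p = 6.8e-05). TXNRD1 rose 3.90-fold, from 75.8, 77.4 and 79.3 CPM to 289, 313 and 317 CPM (log2 fold change 1.96 ± 0.14 SE, adjusted p = 2.4e-05). The 3 controls of TXNRD1 were within 4 CPM of each other, and both genes showed groups far apart. SRXN1 rose 4.76-fold, from 23.4, 19.4 and 20.1 CPM to 92.0, 115 and 95.8 CPM (log2 fold change 2.25 ± 0.17 SE, adjusted p = 3.4e-05).

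For glutathione synthesis, GCLM rose 4.60-fold in GFP-negative cells, from 3.22, 5.32 and 5.28 CPM to 20.6, 15 and 28.9 CPM (log2 fold change 2.20 ± 0.30 SE, adjusted p = 6.9e-04). GCLC rose 1.92-fold, from 7.92, 11.2 and 13.3 CPM to 22.9, 17.7 and 22.3 CPM (log2 fold change 0.94 ± 0.23 SE, adjusted p = 0.013). The modifier subunit therefore had the larger fold change of the pair in each fraction, although their difference was not tested. FTH1 rose 1.80-fold, from 2143, 1543 and 1477 CPM to 3523, 2618 and 3288 CPM (log2 fold change 0.85 ± 0.18 SE, adjusted p = 0.0064).

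Treated replicate 3 was the highest treated library in both fractions for 6 of the 10 members, NFE2L2, KEAP1, HMOX1, NQO1, GCLM and TXNRD1, where 22.2% of all tested genes had this pattern. The ratio of its CPM to the mean of the other treated replicates was 1.35 for NFE2L2 in GFP-positive and 1.66 in GFP-negative cells, 2.18 and 1.62 for GCLM, and 1.29 and 1.75 for HMOX1. SRXN1, FTH1 and OSGIN1 had ratios between 0.823 and 1.23. Without this replicate the count of members called higher was 7 in GFP-positive cells, GCLC being lost, and 7 in GFP-negative cells.

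The sort fractions were compared before and after treatment to place the members' levels in motor neurons against the other cells of the culture. In control cells 0 members were called higher and 3 lower in GFP-positive than GFP-negative libraries, where 22.8% of all tested genes were called, 7.47% higher and 15.3% lower. At an adjusted p below 0.05 alone 4 members were lower, against 23.1% of all tested genes, and for 4 every GFP-positive library lay below every GFP-negative one, against 24.1%. The 3 were NQO1 (4.06-fold lower, log2 fold change -2.02 ± 0.24 SE, adjusted p = 1.1e-04), OSGIN1 (2.32-fold lower, -1.22 ± 0.31, adjusted p = 0.011) and HMOX1 (2.21-fold lower, -1.15 ± 0.28, adjusted p = 0.0091). SRXN1 passed the test at a smaller size (log2 fold change -0.57 ± 0.18 SE, adjusted p = 0.025), and did so in 9 of 14 alternative settings (highest adjusted p = 0.1). Levels of NFE2L2 overlapped between the fractions (log2 fold change -0.20 ± 0.19 SE, adjusted p = 0.43), as did those of KEAP1, GCLC, GCLM and FTH1. TXNRD1 was above in each GFP-positive control library (log2 fold change 0.28 ± 0.13 SE, adjusted p = 0.12) and did not pass, a separation that 29.1% of all tested genes shared. The calls of HMOX1 and OSGIN1 depended on single libraries: HMOX1 was at -0.98 without control GFP-positive replicate 3, and OSGIN1 at -0.95 without control GFP-negative replicate 1 and at -1.10 (adjusted p = 0.052) without control GFP-positive replicate 1. All 3 calls held without the erythroid-rich control GFP-negative replicate 3.

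In treated cells the same 3 members were called lower in GFP-positive libraries and 0 higher, where 23.7% of all tested genes were called, 10% higher and 13.7% lower. At an adjusted p below 0.05 alone 5 members were lower, against 24.9% of all tested genes, and the fractions did not overlap for these 5, as for 29.6% of all genes in that direction. NQO1 was 8.02-fold lower (log2 fold change -3.00 ± 0.17 SE, adjusted p = 7.9e-08), OSGIN1 2.52-fold lower (-1.33 ± 0.19, adjusted p = 9.0e-05) and HMOX1 2.41-fold lower (-1.27 ± 0.23, adjusted p = 5.7e-04). KEAP1 (log2 fold change -0.60 ± 0.14 SE, adjusted p = 0.0038) and SRXN1 (-0.42 ± 0.15, adjusted p = 0.035) passed the test below the fold limit, SRXN1 in 7 of 14 alternative settings (highest adjusted p = 0.19). NFE2L2 overlapped again (log2 fold change 0.20 ± 0.21 SE, adjusted p = 0.45). Without treated GFP-negative replicate 3, HMOX1 was at -0.97 and 2 members were called.

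**Figure D3:**
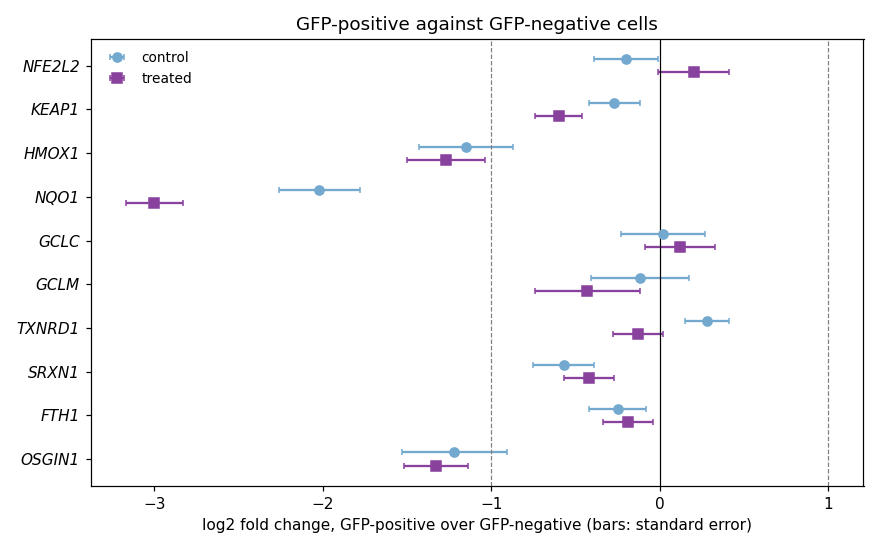
log2 fold change of GFP-positive over GFP-negative libraries for each member in control cells (circles) and treated cells (squares), with bars for the standard error and dashed lines at a 2-fold change. NQO1, HMOX1 and OSGIN1 lie beyond -1 in both, and NQO1 moves from -2.02 to -3.00.

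Whether the response itself differed between fractions was tested with an interaction term, treatment by sort fraction, over all 12 libraries. None of the 10 members passed edgeR's quasi-likelihood test at an adjusted p below 0.05, where 2.19% of all tested genes did; 3 members (KEAP1, NQO1 and TXNRD1) had an unadjusted p below 0.05, and DESeq2 called 1, NQO1. NQO1 came closest: its log2 response was smaller in GFP-positive than GFP-negative cells by a difference of -1.11 ± 0.29 SE (adjusted p = 0.06). The ratio of its GFP-negative to its GFP-positive CPM was 5.48, 3.12 and 3.12 in the control pairs and 7.94, 7.65 and 8.82 in the treated pairs, which did not overlap. With the culture as a replicate block, which pairs both fractions of each culture, the NQO1 difference was -1.12 with an adjusted p of 0.0091, and with DESeq2 it was -1.05 with an adjusted p of 0.015. TXNRD1 differed by -0.54 ± 0.20 SE (adjusted p = 0.18) and KEAP1 by -0.45 ± 0.21 (adjusted p = 0.30). For SRXN1 and GCLC the differences were 0.03 ± 0.21 and -0.03 ± 0.33 SE, intervals that still leave room for unequal responses.

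Counts per library do not compare genes of different length, so levels between members were set per kilobase of the Ensembl canonical transcript. FTH1 had the highest level per kilobase in every group, with 1291 ± 138 CPM per kb (SD, n = 3) in control and 2249 ± 214 in treated GFP-positive libraries. KEAP1 came next in both control groups, at 42.1 ± 3.29 CPM per kb in GFP-positive and 47.4 ± 7.76 in GFP-negative libraries (SD, n = 3), and TXNRD1 followed at 26.2 ± 1.68 and 20.1 ± 0.453. After treatment TXNRD1 took the place after FTH1, at 71.2 ± 12.5 CPM per kb in GFP-positive and 79.4 ± 3.83 in GFP-negative libraries (SD, n = 3). The members below these in control GFP-positive cells lay between 0.937 CPM per kb for GCLM and 7.61 for NFE2L2, and their order changed when all annotated exons were counted as length. The 10 members held 0.162 to 0.232% of all counts in control and 0.33 to 0.422% in treated libraries, most of it FTH1, at 0.135 to 0.203% and 0.259 to 0.344%.

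The wider pathway was taken as 122 further genes on 10 lists around NRF2. In GFP-positive cells 17 of the 112 tested rose and 14 fell, with a median log2 fold change of -0.04. In GFP-negative cells 23 of 113 rose and 7 fell, with a median of 0.09. The share called higher was 15.2% and 20.4%, against 12.8% and 8.59% of all tested genes. Called lower were 11.2% and 9.75% of all tested genes. Counts of the single lists that follow are to be read beside these shares of all genes, and some lie near them.

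Of the genes that regulate NRF2, CUL3 and RBX1, the ligase subunits that work with KEAP1, were not called in either fraction. In GFP-positive cells both passed the test below the fold limit, in opposite directions. Their log2 fold changes there were 0.41 ± 0.17 SE for CUL3 (adjusted p = 0.042) and -0.51 ± 0.17 for RBX1 (adjusted p = 0.012). In GFP-negative cells they were at 0.05 ± 0.18 and -0.12 ± 0.28 and did not pass. With the GC trend removed CUL3 was at -0.03 in GFP-positive cells. The small MAF partners differed: MAFF rose in both (log2 fold change 1.45 ± 0.17 SE in GFP-positive and 2.31 ± 0.20 in GFP-negative cells), as did MAFG (1.01 ± 0.18 and 1.31 ± 0.20), while MAFK was at 0.44 (adjusted p = 0.066) and -0.22 (adjusted p = 0.39). SQSTM1, an autophagy receptor that can draw KEAP1 away from NRF2, rose from 177 to 239 CPM in control to 540 to 859 CPM in treated GFP-positive libraries. In GFP-negative libraries it rose from 194 to 204 CPM to 986 to 1617 CPM, with log2 fold changes of 1.84 ± 0.18 and 2.66 ± 0.20 SE. BACH1, the repressor, passed the test in GFP-positive cells below the fold limit (0.81 ± 0.19) and not in GFP-negative cells (0.38 ± 0.37, adjusted p = 0.47). NFE2L1, a relative of NRF2 that drives proteasome genes, was at 0.56 ± 0.15 and 1.03 ± 0.17. On this list of 15 genes, 4 of 14 tested rose and 1 fell (DPP3, a KEAP1 binder, -1.45 ± 0.18) in GFP-positive cells, and 5 rose and 0 fell in GFP-negative cells.

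Cystine import stood out among the glutathione genes. SLC7A11, the cystine carrier, went from 0.709, 0.782 and 0.96 CPM to 46.9, 36.7 and 33.3 CPM in GFP-positive libraries and from 5.75, 3.91 and 5.76 CPM to 87.0, 82.1 and 76.5 CPM in GFP-negative ones. Its log2 fold changes were 5.63 ± 0.25 and 3.98 ± 0.21 SE (adjusted p = 3.2e-19 and 8.2e-06), so it changed more than any member in both fractions. SLC3A2, its partner chain, rose by 3.78 ± 0.18 and 3.73 ± 0.21, and CHAC1, which breaks glutathione down, by 2.90 ± 0.23 and 3.48 ± 0.54. GSR, glutathione reductase, passed the test below the fold limit (0.69 ± 0.17 and 0.72 ± 0.14). Apart from GCLC and GCLM, 4 of 15 tested glutathione genes rose and 3 fell in GFP-positive cells, and 5 rose and 1 fell in GFP-negative cells.

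Beyond TXNRD1 and SRXN1, none of the 11 other genes of the thioredoxin and peroxiredoxin list was called higher, and 3 fell in GFP-positive and 1 in GFP-negative cells. TXN, thioredoxin itself, was at -0.14 ± 0.19 SE and 0.03 ± 0.32, and PRDX1 at 0.30 ± 0.16 and 0.34 ± 0.23, none of which passed. TXNRD2, the mitochondrial reductase, fell in both fractions (-2.53 ± 0.55 and -1.58 ± 0.34), from 0.8 to 0.97 CPM in control to 0.06 to 0.286 CPM in treated GFP-positive libraries. TXNIP, an inhibitor of thioredoxin, fell in GFP-positive cells (-1.32 ± 0.22), and in GFP-negative cells it was at -0.42 ± 0.48, a value that became 0.31 without control GFP-negative replicate 3, where its level was 185 CPM.

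In haem and iron handling, FTL, the light ferritin chain, rose from 609 to 899 CPM to 1261 to 1653 CPM in GFP-positive libraries (1.03 ± 0.17 SE) and from 902 to 1149 CPM to 2735 to 5036 CPM in GFP-negative ones (1.89 ± 0.22). TFRC, the transferrin receptor that takes up iron, also rose (2.65 ± 0.17 and 2.05 ± 0.17). Without HMOX1 and FTH1, 3 of 14 tested genes of this list rose and 2 fell in GFP-positive cells, and 4 rose and 1 fell in GFP-negative cells.

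For NADPH supply, ME1, malic enzyme, rose in both fractions (1.44 ± 0.20 and 1.45 ± 0.17 SE), and MTHFD2, a mitochondrial folate enzyme, rose more (3.68 ± 0.17 and 3.19 ± 0.17). These were the 2 of 11 tested genes of the list called higher in each fraction, and the list medians were -0.12 and 0.18. In GFP-positive cells 0 were called lower, while 4 were lower at an adjusted p below 0.05 alone. In GFP-negative cells 1 was called lower, MTHFD1 (-1.04 ± 0.20). Apart from NQO1 and OSGIN1, 0 of 10 tested quinone, aldehyde and ketone reductases rose and 1 fell in GFP-positive cells (AKR1C3, -1.08 ± 0.44), while 2 of 11 rose in GFP-negative cells, NQO2 (1.33 ± 0.23) and AKR1B10, the latter at no more than 1.25 CPM. Of 13 tested conjugation and efflux genes, 1 rose and 2 fell in GFP-positive cells, and 0 rose and 2 fell in GFP-negative cells. The gene that rose was ABCC2 (1.38 ± 0.46), whose treated and control libraries overlapped. The falling pair was GSTM1 (-1.25 ± 0.27 and -1.43 ± 0.20) and GSTM2 (-1.25 ± 0.20 and -1.36 ± 0.22), close paralogs that may share reads. Genes on the list of superoxide and peroxide enzymes were called lower or not at all. In GFP-positive cells 2 of 13 were lower, SOD3 (-1.36 ± 0.50) and MSRB1 (-1.08 ± 0.19), the latter a repair enzyme of oxidised methionine. In GFP-negative cells 1 was lower (SOD3, -1.33 ± 0.28). Of 13 other NRF2 targets, 3 rose in GFP-positive and 5 in GFP-negative cells and none fell, among them PHGDH of serine synthesis (2.48 ± 0.18 and 1.79 ± 0.16).

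**Figure D4:**
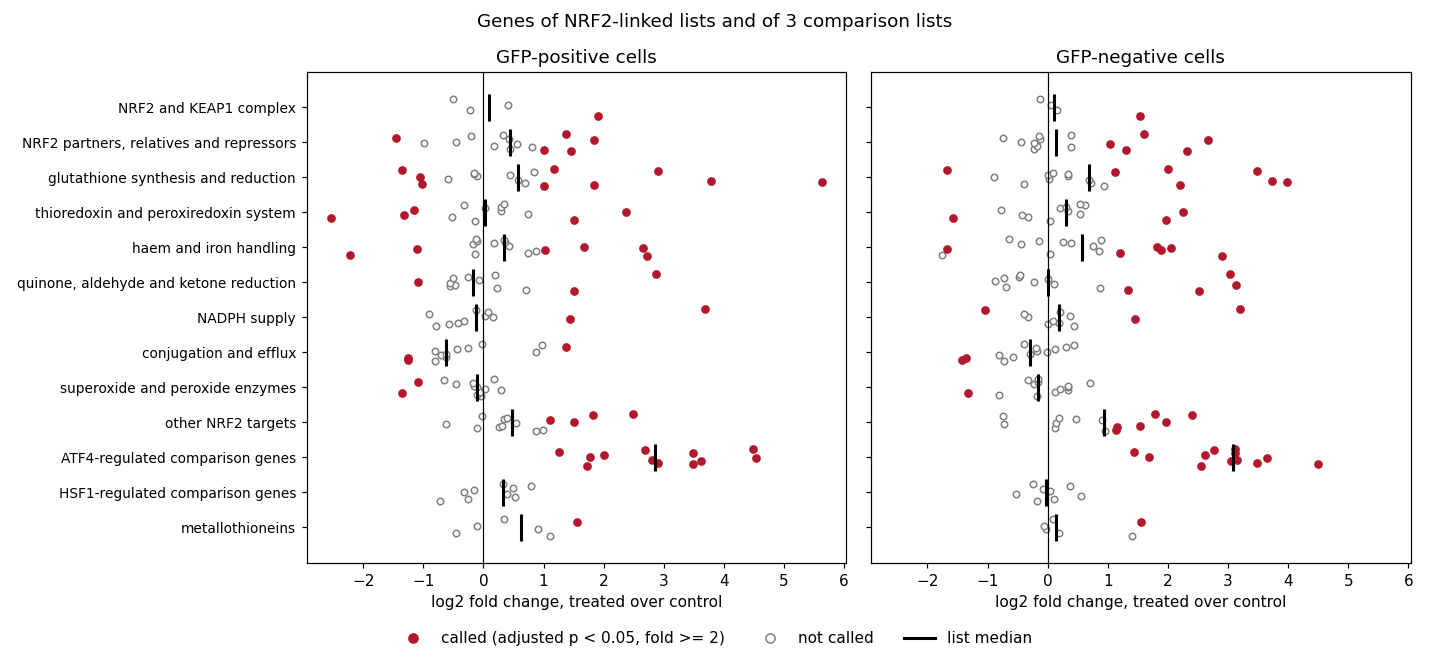
log2 fold change of treated over control libraries for every tested gene of 10 NRF2-linked lists, members included, and 3 comparison lists, with filled points for called genes and a bar for the list median. All 12 ATF4-regulated genes are called higher in both fractions, and no HSF1-regulated gene is called in either.

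Lists of other stress pathways were set beside the members. All 12 genes regulated by ATF4, the factor of the integrated stress response, rose in both fractions, with medians of 2.86 in GFP-positive and 3.08 in GFP-negative cells, among them ATF3 (4.54 ± 0.19 and 3.64 ± 0.26 SE), DDIT3 (3.62 ± 0.21 and 3.05 ± 0.37) and TRIB3 (3.48 ± 0.18 and 4.49 ± 0.26). CHAC1 is on this list as well, and SLC7A11, SLC3A2, PHGDH and MTHFD2 are known targets of ATF4 too. Of the genes regulated by HSF1, the heat shock factor, 0 of 9 tested were called in GFP-positive cells (3 had an adjusted p below 0.05) and 0 of 8 in GFP-negative cells (1 had), DESeq2 called 0 in each, and 4 and 3 had an unadjusted p below 0.05, with medians of 0.32 and -0.02. Of 6 tested metallothionein-list genes, MT2A, a metal-binding protein, was the one called (1.56 ± 0.30 and 1.56 ± 0.32).

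Genes whose log2 CPM followed a member most closely over the 12 libraries were taken from 11137 genes as a description, and the libraries fall into 4 groups, which all these genes share. SRXN1 was most like SLC3A2 (Pearson's r = 0.993), SLC6A9 (0.992) and SLC7A3 (0.991), 3 amino acid transport genes. HMOX1 and OSGIN1 had the same closest gene, SHMT2, a mitochondrial enzyme of serine use, at 0.992 and 0.99. NQO1 was closest to EIF3D (0.992), NFE2L2 to FXR1 (0.99) and GCLM to PCYT1A (0.987). KEAP1 (UROD, 0.967) and GCLC (IBTK, 0.974) had the weakest best matches.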

How the data were processed

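RNA of sorted cells was sequenced with a stranded mRNA kit. The authors aligned single-end, reverse-stranded reads with HISAT2 to hg38, named an Ensembl GRCh38 annotation, and counted reads per gene with featureCounts (tools and build also from the submitters' processing notes; tool versions and the strand setting of the counting step are not given in the sources used here), and deposited raw counts in 12 columns for 28278 genes. The labels give 10 µM cis-chlordane and the paper's methods a higher concentration. Titles of treated samples also carry the word untreated; groups follow the second title field and the treatment label.

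Genes with low counts were removed (filterByExpr, minimum count 10, minimum total 15), and edgeR 4.0.16 quasi-likelihood tests with TMM scaling were run per comparison in R 4.3.3, with Benjamini-Hochberg adjustment over all tested genes. Standard errors are the log2 fold change divided by the square root of F. CPM use a single TMM scaling over all libraries. DESeq2 1.42.0 was an alternative. An exact permutation test of 3 against 3 libraries cannot go below 0.1, so none was used. On simulated GFP-positive data of 10886 genes, 90 of 100 genes changed by a log2 fold change of 1 and 100 of 100 changed by 2 were recovered. For the interaction (11131 genes) these were 44 and 100. Recovered here means an adjusted p below 0.05 alone, so the shares do not hold for calls that also need a 2-fold change. The simulation gave all genes the same fixed dispersion and left out genes of low level.

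GENCODE 44 matched 25763 of 28278 symbols (91.1%) and gave positions, overlaps and lengths; promoters came from RefSeq GRCh38.p14. Members and lists were chosen with earlier results of these data known. Named are all members, up to 3 called genes of each list by size of change, and a set list of regulators and targets; genes with an interaction on the lists were named after their values were seen. Some items under the naming rule are not reported here. Same-numbered fractions are sorts of a single culture by their titles, and their deviations from group means correlated by 0.12 to 0.46 over 13813 genes of at least 1 CPM and by 0.08 to 0.36 over all 16226 tested, so fits with the culture as a block were run beside the interaction and the fraction comparisons. For treated and control libraries of the same number the correlations were -0.08 to 0.40 and -0.05 to 0.28. Whether these cultures pair was thus not settled, and the main treatment tests left the number out.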

Additional observations from a re-analysis of the deposited data

Results flagged for a closer look

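The log2 response to treatment of some pathway genes outside the members, and of an ATF4-regulated gene, differed between GFP-positive and GFP-negative cells by the interaction test (adjusted p below 0.05); STC2, PANX2, RIT1 and MSRA were singled out after their values were seen. SLC7A11 had a difference of 1.57 ± 0.29 SE (adjusted p = 0.012), starting from under 1 CPM in control GFP-positive libraries. STC2, a secreted stress protein, had a difference of 1.29 ± 0.25 (adjusted p = 0.015), with 7.73 to 10.2 CPM in control and 164 to 222 CPM in treated GFP-positive libraries. PANX2, a pannexin, had a difference of -1.30 ± 0.22 (adjusted p = 0.007): it was at 32.6 to 36.5 and 38.1 to 46.5 CPM in control and treated GFP-positive libraries, and at 13 to 15 and 35.6 to 46.2 CPM in GFP-negative ones. RIT1, a small GTPase (-0.98 ± 0.24, adjusted p = 0.041), and MSRA, which repairs oxidised methionine (-0.98 ± 0.24, adjusted p = 0.045), lay near the threshold: most alternatives put both above it, while the replicate block by culture gave adjusted p = 0.0081 and 0.016. In the main fit no member differed by this test. NQO1 had an adjusted p below 0.05 in 4 of 20 alternative settings, among them the replicate block by culture (adjusted p = 0.0091).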

How the results depend on the processing

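Under the alternatives run (scaling by RLE or by library size alone, testing every gene or those with 10 counts in every library, DESeq2, a GC trend removed, a single fit of all 12 libraries, a replicate block, each library left out), the number of members called higher was 7 or 8 in GFP-positive and in GFP-negative cells, and 9 in both with no minimum fold change. Counts were compared by direction, and in most of the 160 alternatives the reported count was 0. A count that stayed at 0 was scored as unchanged, so the share unchanged is a weak check of the calls. In 155 of 160 alternatives the counts of called members stayed within 1.5 times the reported ones. The exceptions were the members lower in treated GFP-positive than GFP-negative cells, 5 in place of 3 with no minimum fold change, and the members with a smaller response in GFP-positive cells, 1 in place of 0 with no filter, with DESeq2 and with the replicate block by culture, and 0 to 1 with each library left out. That 1 was NQO1, at -1.12 (adjusted p = 0.04), -1.05 (adjusted p = 0.015), -1.12 (adjusted p = 0.0091) and, without control GFP-negative replicate 1, -1.27 (adjusted p = 0.022); the cause was not tested. The block by replicate number, in contrast, gave 7 members called higher in each fraction. GCLC was lost in GFP-positive cells at 0.99, and no other call of a member changed. Treated and control libraries of the same number correlated by -0.08 to 0.40, which does not settle whether such cultures belong together. Library size alone moved the median log2 fold change of all genes from 0.03 to 0.14 in GFP-positive cells, from 0.05 to 0.22 between treated fractions and from -0.05 to 0.20 for the interaction.

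Signs turned for values that were not called, among them CUL3 in GFP-positive cells, which had passed at an adjusted p of 0.042. With the GC trend removed KEAP1 was at 0.18, CUL3 at -0.03 and RIT1 at -0.11 in GFP-positive cells, MAFK at 0.05, CUL3 at -0.22 and TXN at -0.36 in GFP-negative cells, GCLC at -0.04 between control and -0.01 between treated fractions, and NFE2L2 at -0.04 between treated fractions. Library size alone put CUL3 at -0.02 and TXN at -0.01 in GFP-negative cells, TXNRD1 at 0.04 between treated fractions, and the interactions of GCLC, FTH1, HMOX1 and OSGIN1 at 0.24, 0.18, 0.03 and 0.02. The interaction of GCLC was 0.03 with RLE scaling, 0.04 with DESeq2 and, at 10 counts in every library, 0.13, where FTH1 was at 0.09. With each library left out in turn, the ranges that crossed 0 were -0.34 to 0.11 for TXN in GFP-positive cells, -0.23 to 0.55 for TXN, -0.07 to 0.18 for CUL3 and -0.79 to 0.31 for TXNIP in GFP-negative cells, -0.33 to 0.04 for GCLM and -0.17 to 0.22 for GCLC between control fractions, and -0.12 to 0.25 for GCLC between treated fractions. For the interaction they were -0.20 to 0.18 for GCLC, -0.23 to 0.16 for FTH1, -0.43 to 0.08 for HMOX1, -0.04 to 0.19 for SRXN1 and -0.51 to 0.00 for OSGIN1.

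With 3 cultures of a single line in each group, changes near 2-fold sat at the edge of the calls, as GCLC (0.78 to 1.14 over the alternatives in GFP-positive cells) and FTH1 (0.77 to 0.98) did.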
